A study of Mus musculus with 12 samples.

Results

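The genes described here make up the orexin and melanin-concentrating hormone (MCH) system of the hypothalamus, with the neuropeptides neurotensin and galanin that neighbouring neurons make. They were chosen by name, not by their values: Hcrt, Pmch, Hcrtr1, Hcrtr2, Mchr1, Nts and Gal, each with 1 probe set that carries a single gene symbol, out of 19938 genes with such a probe set. All 7 were above the filter on dim genes and stood among the 14953 genes tested. By mean signal they ranged from percentile 45.8 of the 19938 genes for Nts and 48.1 for Hcrtr2 to 99.2 for Hcrt. The samples were hypothalamus of male C57BL/6J mice, 23 weeks old, fed a diet holding 45% fat for 20 weeks from the age of 3 weeks. All mice received daily intraperitoneal DMSO, the solvent, for 4 days, and were then injected for another 4 days with withaferin A at 2 mg/kg, with celastrol at 100 µg/kg or with DMSO. Both compounds come from plants and are known as leptin sensitizers that make obese mice eat less and lose weight. Each group had 4 biological replicates and each sample 1 one-colour Affymetrix array (12 arrays), and precision is bounded by that number. The labels do not say whether animals were pooled, no lean or untreated mice are among the 12 arrays, and all groups share the diet and the DMSO lead-in.

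Orexins, also called hypocretins, are peptides cut from the Hcrt precursor in neurons of the lateral hypothalamus, and they sustain wakefulness and promote feeding and reward seeking. MCH is cut from the Pmch precursor in separate neurons of the same area, promotes feeding and energy storage, and is active mainly in sleep. Neurotensin and galanin are made by other lateral hypothalamic neurons, many of which carry the leptin receptor, and also in further hypothalamic nuclei.

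The deposited values are RMA signals on a log2 scale, where 1 unit is a 2-fold difference. Medians of the arrays lay between 6.89 and 6.98. Any array correlated with any other at 0.981 to 0.994, and 0 pairs were identical. Of 10 hypothalamic marker genes 10 were measured and above the dim filter, among them Oxt at 10.99 to 11.56 and Avp at 10.73 to 11.10. Arrays differed in markers of adjacent tissue. The mean of 8 thalamus markers, as a log2 deviation from its average over all arrays, ran from −0.44 to 0.49 with withaferin A, from −0.26 to 0.69 with celastrol and from −0.64 to 0.45 with DMSO. The mean of 7 measured pituitary markers was 1.70 on celastrol replicate 2, where Gh reached 10.96, and it ran from 0.01 to 0.06 on the other celastrol arrays. It ran from −0.33 to 0.07 with withaferin A and from −0.52 to −0.16 with DMSO.

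None of the 7 genes passed an adjusted p of 0.05 in limma's moderated test, in any of the 3 comparisons. For celastrol versus DMSO this was 0 of 7, where 0.769% of all genes tested passed, and for withaferin A versus DMSO 0 of 7, where 0% passed. For withaferin A versus celastrol it was 0 of 7, where 0.0468% passed. At an unadjusted p under 0.05 the counts were 3, 1 and 2 of 7, against 10.4%, 15.7% and 16.1% of all genes tested. Groups lay wholly apart for 0 of 7 after celastrol (4.5% of all genes tested wholly below DMSO, 2.71% wholly above) and for 0 of 7 after withaferin A (4.69% below DMSO, 2.91% above). Between the compounds, 0 of 7 lay wholly lower with withaferin A than with celastrol, as did 5.35% of all genes tested, and 2 of 7 lay wholly higher, as did 3.92%. The comparisons with DMSO share the DMSO arrays, and the direct comparison reuses the treated arrays, so they are not independent of one another. In bulk tissue, fewer cells of a type and less RNA per cell cannot be told apart.

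The sequences just upstream of the peptide genes are shown because they are where transcription of the precursors starts. Each run holds the 250 bases before the start of transcription in RefSeq's annotation of GRCm38.p6, 5′ to 3′ on the gene's strand. All 4 genes were matched by symbol. Capitals mark letters that match any of 5 motifs on either strand: the TATA box TATAAA, the cyclic AMP response element TGACGTCA, the AP-1 element TGANTCA, the STAT element TTCNNNGAA and the palindromic glucocorticoid response element. None of the marked matches overlap.
Hcrt, chr11:100762932-100763181, minus strand: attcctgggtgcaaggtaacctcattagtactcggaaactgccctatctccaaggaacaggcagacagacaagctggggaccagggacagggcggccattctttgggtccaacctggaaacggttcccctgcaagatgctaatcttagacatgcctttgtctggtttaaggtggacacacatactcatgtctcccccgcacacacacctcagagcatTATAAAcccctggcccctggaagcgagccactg
Pmch, chr10:88090822-88091071, plus strand: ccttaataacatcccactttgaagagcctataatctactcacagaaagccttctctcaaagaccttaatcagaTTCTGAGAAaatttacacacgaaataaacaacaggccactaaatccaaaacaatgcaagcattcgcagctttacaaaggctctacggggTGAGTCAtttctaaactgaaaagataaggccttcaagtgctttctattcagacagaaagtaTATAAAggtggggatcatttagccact
Nts, chr10:102490419-102490668, minus strand: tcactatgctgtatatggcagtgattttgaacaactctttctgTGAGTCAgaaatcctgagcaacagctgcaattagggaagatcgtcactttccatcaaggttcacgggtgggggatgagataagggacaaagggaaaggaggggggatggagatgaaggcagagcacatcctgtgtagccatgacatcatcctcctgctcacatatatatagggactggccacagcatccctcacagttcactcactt
Gal, chr19:3414545-3414794, minus strand: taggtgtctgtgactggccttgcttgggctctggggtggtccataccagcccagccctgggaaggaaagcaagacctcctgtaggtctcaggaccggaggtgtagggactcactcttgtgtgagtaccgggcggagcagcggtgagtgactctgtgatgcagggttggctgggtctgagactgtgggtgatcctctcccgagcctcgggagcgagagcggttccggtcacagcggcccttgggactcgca

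Hcrt and Pmch hold the TATA letters, at positions −33 to −28 and −27 to −22 counted from the start. At any position and on either strand, these letters occur in 12.4% of 32817 such windows in the mouse annotation. Pmch and Nts hold the AP-1 letters, found in 6.75% of windows, and Pmch holds the STAT letters, found in 7.01%. The Gal window holds none of the 5. The exact letters of the cyclic AMP and glucocorticoid elements, found in 1.55% and 0.387% of windows, are in none of the 4. Variants that differ from the given letters were not searched. These matches describe letters in these windows only.

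Hcrt, the orexin precursor gene, had a log2 signal of 12.15, 12.18, 12.28 and 12.03 on the withaferin A arrays, of 12.12, 12.33, 11.92 and 12.18 on the celastrol arrays and of 12.01, 12.25, 12.51 and 12.15 on the DMSO arrays. The groups overlapped throughout, and DMSO replicates 3 and 1 held the highest and the lowest DMSO value. The means were 12.16 ± 0.10 with withaferin A, 12.14 ± 0.17 with celastrol and 12.23 ± 0.21 with DMSO (SD, n = 4 each). The log2 difference was −0.09 ± 0.11 (SE) for celastrol minus DMSO, with a 95% interval from −0.32 to 0.13, or 0.80-fold to 1.10-fold. It was −0.07 ± 0.11 for withaferin A minus DMSO, with an interval from −0.30 to 0.15. The adjusted p-values in limma were 0.83 and 0.761. These values moved with single arrays: celastrol minus DMSO was −0.17 without DMSO replicate 1, −0.16 without celastrol replicate 2, −0.022 without celastrol replicate 3 and −0.00081 without DMSO replicate 3. Withaferin A minus DMSO was −0.15 without DMSO replicate 1, −0.12 without withaferin A replicate 3, −0.031 without withaferin A replicate 4 and 0.019 without DMSO replicate 3.

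Pmch, the MCH precursor gene, was at 11.97, 12.004, 11.98 and 11.65 with withaferin A, at 12.06, 12.31, 11.90 and 11.81 with celastrol and at 12.16, 12.23, 12.32 and 11.99 with DMSO. Of the withaferin A arrays 3 lay below the lowest DMSO array, and withaferin A replicate 4 lay far below its group. The mean of 11.90 ± 0.17 with withaferin A was the lowest, followed by 12.02 ± 0.22 with celastrol and 12.17 ± 0.14 with DMSO (SD, n = 4 each). For withaferin A minus DMSO the log2 difference was −0.27 ± 0.11 (SE), or 0.827-fold with an interval from 0.701-fold to 0.976-fold. Its unadjusted p was 0.0273 and its adjusted p 0.266 in limma, so it did not pass. For celastrol minus DMSO the difference was −0.15 ± 0.11, with an interval from −0.39 to 0.08 and an adjusted p of 0.70. It was −0.25 without celastrol replicate 2, the array with the highest pituitary mean, and −0.084 without celastrol replicate 4. Without withaferin A replicate 4 the difference of withaferin A from DMSO was −0.19, and without DMSO replicate 4 it was −0.34.

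Nts, which codes for the precursor of neurotensin, a peptide that lowers food intake when given into the brain, had the largest difference of the 7 genes. Its log2 signal was 7.43, 7.02, 7.22 and 7.18 with withaferin A, 7.01, 7.24, 6.92 and 6.85 with celastrol and 7.94, 7.44, 7.11 and 7.30 with DMSO. Of the celastrol arrays 3 lay below each DMSO array, and celastrol replicate 2 lay within the DMSO range. DMSO replicate 1 was the highest array of all. The means were 7.21 ± 0.17 with withaferin A, 7.005 ± 0.17 with celastrol and 7.45 ± 0.35 with DMSO (SD, n = 4 each).

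For celastrol minus DMSO, Nts had a log2 difference of −0.44 ± 0.15 (SE), or 0.736-fold with a 95% interval from 0.589-fold to 0.919-fold. The unadjusted p was 0.0104 and the adjusted p 0.244 in limma, and the p ranked 635 among 14953. Without DMSO replicate 1 the difference was −0.28, and without DMSO replicate 3 it was −0.55, with an adjusted p of 0.143. For withaferin A minus DMSO the difference was −0.24 ± 0.15, with an interval from −0.56 to 0.08 and an adjusted p of 0.453. It was −0.07 without DMSO replicate 1 and −0.35 without DMSO replicate 3.

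Gal, which codes for galanin, a peptide that stimulates feeding, was at 10.22, 10.03, 10.14 and 9.97 with withaferin A, at 10.13, 10.12, 9.73 and 9.99 with celastrol and at 10.42, 10.18, 10.02 and 10.24 with DMSO. Celastrol replicate 3 held the lowest value and DMSO replicate 1 the highest, and the groups overlapped. The means were 10.09 ± 0.11 with withaferin A, 9.99 ± 0.19 with celastrol and 10.21 ± 0.17 with DMSO (SD, n = 4 each). The log2 difference for celastrol minus DMSO was −0.22 ± 0.10 (SE), or 0.858-fold with an interval from 0.739-fold to 0.997-fold, with an unadjusted p of 0.0457 and an adjusted p of 0.459 in limma. Without celastrol replicate 3 it was −0.13, and without DMSO replicate 3 it was −0.29. For withaferin A minus DMSO it was −0.13 ± 0.10, with an interval from −0.34 to 0.09 and an adjusted p of 0.56. Without DMSO replicate 1 it was −0.06, and without DMSO replicate 3 it was −0.19.

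**Figure D1:**
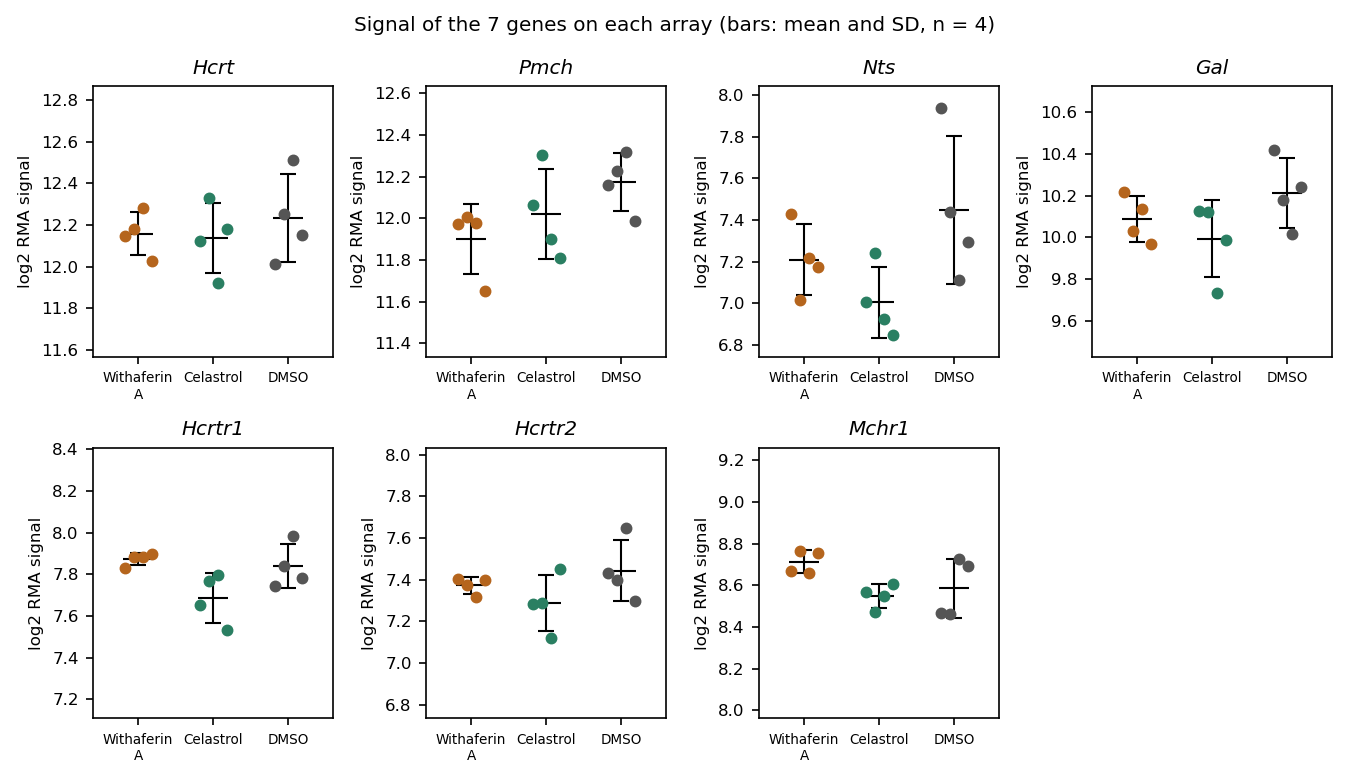
Log2 RMA signal (vertical axes, each spanning the same width) of the 7 genes on each array of the withaferin A, celastrol and DMSO groups, with points in replicate order and black bars for the mean and SD of 4 arrays. Hcrtr1 and Mchr1 show withaferin A arrays all above the celastrol arrays, DMSO replicate 1 stands highest for Nts at 7.94, and withaferin A replicate 4 stands lowest for Pmch at 11.65.

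Hcrtr1, the receptor with a preference for orexin-A, was at 7.83, 7.88, 7.88 and 7.90 with withaferin A, at 7.65, 7.77, 7.80 and 7.53 with celastrol and at 7.74, 7.84, 7.98 and 7.78 with DMSO. The withaferin A arrays lay above all celastrol arrays and within the DMSO range. The log2 difference for celastrol minus DMSO was −0.15 ± 0.07 (SE, n = 4 each), with an interval from −0.30 to −0.0043, an unadjusted p of 0.0445 and an adjusted p of 0.456 in limma, and it was −0.099 without celastrol replicate 4. Withaferin A minus DMSO gave 0.03 ± 0.07, with an adjusted p of 0.828, and was 0.0033 and 0.017 without DMSO replicates 1 and 4 and 0.084 without DMSO replicate 3.

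Hcrtr2, the receptor that binds orexin-A and orexin-B alike and whose loss causes narcolepsy in dogs, was at 7.40, 7.37, 7.32 and 7.40 with withaferin A, at 7.28, 7.29, 7.12 and 7.45 with celastrol and at 7.43, 7.40, 7.65 and 7.30 with DMSO. Of the celastrol arrays 3 lay below the lowest DMSO array, and celastrol replicate 4 lay above 3 of the DMSO arrays. The log2 difference for celastrol minus DMSO was −0.16 ± 0.08 (SE, n = 4 each), with an interval from −0.33 to 0.01 and an adjusted p of 0.523 in limma. It was −0.09 without DMSO replicate 3, −0.10 without celastrol replicate 3 and −0.21 without celastrol replicate 4. Withaferin A minus DMSO gave −0.07 ± 0.08, with an adjusted p of 0.696, and was −0.0018 without DMSO replicate 3 and −0.12 without DMSO replicate 4.

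Mchr1, the MCH receptor of mice, which sits on the primary cilium of neurons, was at 8.67, 8.76, 8.66 and 8.76 with withaferin A, at 8.57, 8.47, 8.55 and 8.61 with celastrol and at 8.47, 8.46, 8.73 and 8.69 with DMSO. The DMSO arrays fell into a lower and a higher pair, and 2 withaferin A arrays lay between these pairs and 2 above the highest DMSO array. The log2 difference was −0.04 ± 0.07 (SE, n = 4 each) for celastrol minus DMSO, with an interval from −0.18 to 0.11 and an adjusted p of 0.903 in limma, and it was −0.080 when DMSO replicate 2 was left out and 0.0086 when DMSO replicate 3 was. The difference of withaferin A minus DMSO was 0.13 ± 0.07, with an interval from −0.02 to 0.27 and an adjusted p of 0.383. It was 0.084 without DMSO replicate 2 and 0.17 without DMSO replicate 3.

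In the comparison of the compounds with each other, whose doses differed, both receptors Hcrtr1 and Mchr1 were higher on each withaferin A array than on any celastrol array. Hcrtr1 averaged 7.87 ± 0.03 with withaferin A and 7.69 ± 0.12 with celastrol (SD, n = 4 each), a log2 difference of 0.19 ± 0.07 (SE), or 1.14-fold with an interval from 1.03-fold to 1.26-fold. Mchr1 averaged 8.71 ± 0.05 with withaferin A and 8.55 ± 0.06 with celastrol, a difference of 0.16 ± 0.07, or 1.12-fold with an interval from 1.01-fold to 1.24-fold. The adjusted p-values were 0.22 and 0.264 in limma, and neither passed. For the other 5 genes the difference of withaferin A minus celastrol ran from −0.12 for Pmch to 0.21 for Nts, with adjusted p from 0.506 to 0.944. With single arrays left out, Pmch ran from −0.19 without celastrol replicate 4 to −0.025 without celastrol replicate 2, and was −0.036 without withaferin A replicate 4. Nts ran from 0.13 without withaferin A replicate 1 to 0.28 without celastrol replicate 2. Hcrtr2 ran from 0.032 without celastrol replicate 3 to 0.14 without celastrol replicate 4, and Gal from 0.0068 without celastrol replicate 3 to 0.14 without celastrol replicate 1, with 0.051 without withaferin A replicate 1.

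**Figure D2:**
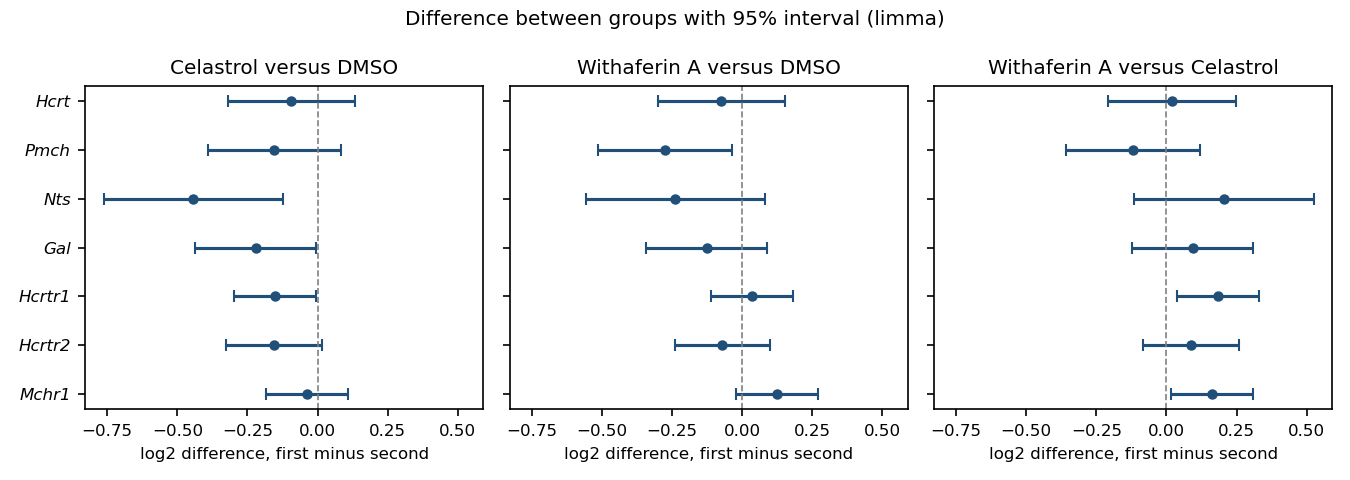
Log2 difference (horizontal axes, first group minus second) of each gene in the 3 comparisons, with points for the limma estimate and bars for its 95% interval. The interval of Nts for celastrol minus DMSO, from −0.76 to −0.12, lies farthest from 0, and none of the 21 differences passed after adjustment.

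By sign, 7 of the 7 genes lay below DMSO after celastrol, where 57.4% of all genes tested did, and 5 of 7 after withaferin A, where 51.5% did; 1 of 7 was lower with withaferin A than with celastrol, where 45.1% were. The median log2 difference of the 7 was −0.15 for celastrol versus DMSO, −0.07 for withaferin A versus DMSO and 0.09 for withaferin A versus celastrol. Over all genes tested it was −0.017, −0.0041 and 0.013. Marker means differed between celastrol and DMSO arrays too. The mean of the 10 hypothalamus markers ran from −0.15 to 0.02 with celastrol and from 0.01 to 0.17 with DMSO. Oxt, the oxytocin gene, was at 10.99 to 11.34 with celastrol and at 11.51 to 11.56 with DMSO, without overlap. All other hypothalamus markers overlapped between these groups, and not all were lower with celastrol. Nr5a1 was at 7.16 to 7.23 with celastrol and at 7.01 to 7.20 with DMSO. The mean of 6 measured oligodendrocyte markers ran from −0.09 to −0.06 with celastrol and from 0.06 to 0.17 with DMSO, but its members did not move as a whole: Opalin was at 7.40 to 7.74 with celastrol and at 8.45 to 8.73 with DMSO, whereas Mobp was at 11.20 to 11.41 with celastrol and at 10.92 to 11.05 with DMSO. The mean of 5 endothelial markers ran from −0.15 to −0.03 with celastrol and from 0.02 to 0.11 with DMSO, and Slco1c1, at 8.42 to 8.69 with celastrol and at 8.9955 to 9.27 with DMSO, was the 1 marker of the 5 whose groups did not overlap. The pituitary mean given above was higher on each celastrol array than on any DMSO array. For none of its single markers did these groups lie wholly apart. Gh was at 6.81 to 10.96 with celastrol and at 6.30 to 6.94 with DMSO. Pitx1 was at 5.95 to 6.60 with celastrol and at 6.22 to 6.43 with DMSO. Of the 7 measured pituitary markers, Tshb and Fshb averaged below the dim filter. Whether these markers had a part in the differences between groups for the 7 genes was not tested. With the thalamus mean as a covariate, chosen after the data were seen, the celastrol minus DMSO difference was −0.026 for Hcrt, −0.09 for Pmch, −0.46 for Nts, −0.21 for Gal, −0.15 for Hcrtr1, −0.10 for Hcrtr2 and −0.04 for Mchr1. The withaferin A minus DMSO difference was then −0.024 for Hcrt, −0.030 for Hcrtr2 and −0.23 for Pmch. It was −0.25 for Nts, −0.12 for Gal, 0.03 for Hcrtr1 and 0.12 for Mchr1, near the values without the covariate. In both comparisons 0 of the 7 passed.

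Correlations within groups were computed for the 21 pairs of the 7 genes, and none passed after adjustment. Over the 12 arrays, each value taken as the deviation from its group mean, Nts and Gal had a Pearson r of 0.743 (exact permutation p within groups = 0.0154, two-sided) and a Spearman rho of 0.776 (exact permutation p = 0.0109). DMSO replicate 1 was highest and DMSO replicate 3 lowest in both genes within the DMSO group. The adjusted p was 0.162 for r, and r was 0.571 without DMSO replicates 1 and 3, the 2 arrays with the most extreme Nts. Without centring on group means r was 0.83, with an adjusted p of 0.0292 from 100000 random shuffles over all 12 arrays. That r includes the differences between groups, as both genes had their highest mean with DMSO. Within the groups r was 0.773 with withaferin A, 0.558 with celastrol and 0.924 with DMSO, over 4 arrays each.

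Mchr1 and Nts had r = −0.805 (exact permutation p = 0.00456) and rho = −0.832 (exact permutation p = 0.0038). The adjusted p of r was 0.0957, and r was −0.934 without DMSO replicates 2 and 3, the 2 arrays with the most extreme Mchr1. It was −0.747 with withaferin A, −0.95 with celastrol and −0.791 with DMSO. The precursor genes of the neighbouring orexin and MCH neurons, Hcrt and Pmch, had r = 0.645 (exact permutation p = 0.0389) and rho = 0.678 (exact permutation p = 0.0303), with an adjusted p of r of 0.272. Their r was 0.707 without DMSO replicates 1 and 3. It was 0.821 with withaferin A, 0.636 with celastrol and 0.674 with DMSO. Each of the other pairs had an unadjusted p for r of 0.112 or more. The 12 arrays share a normalization.

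**Figure D3:**
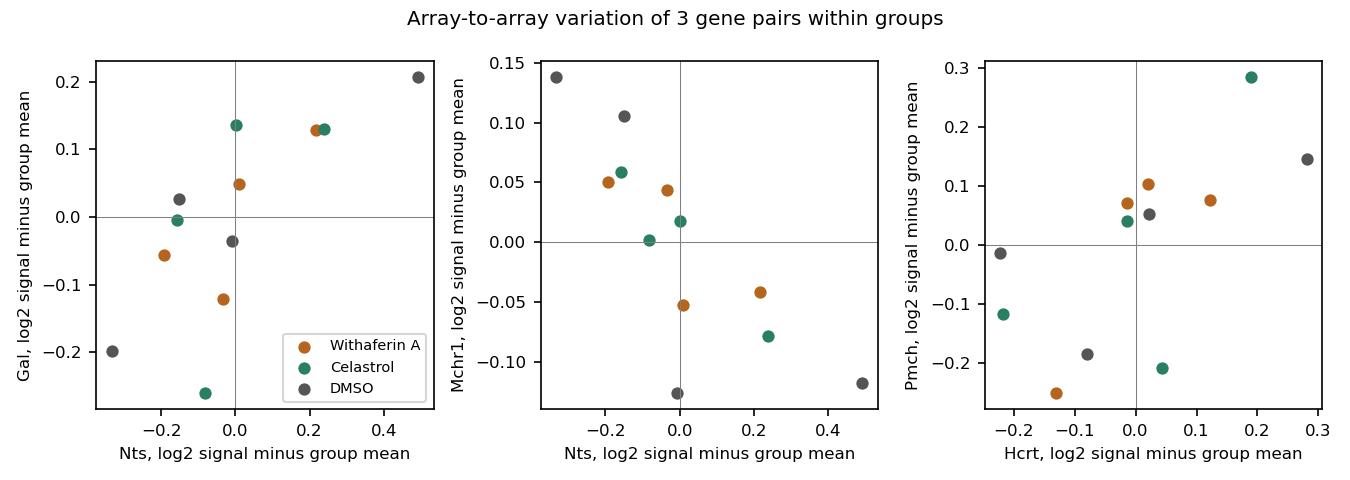
Log2 signal minus the group mean for Gal against Nts, Mchr1 against Nts and Pmch against Hcrt, with 1 point per array coloured by group. The points of Gal and Nts (r = 0.743) and of Pmch and Hcrt (r = 0.645) slope upward and those of Mchr1 and Nts (r = −0.805) downward, and none of these passed after adjustment over 21 pairs.

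Marker means of adjacent tissue were set against the 7 genes in the same way, in 21 relations with those of thalamus, pituitary and hypothalamus. None passed after adjustment. Against the thalamus mean, Hcrtr2 had r = −0.706 (exact permutation p = 0.0188, adjusted p = 0.262) and rho = −0.706 (exact permutation p = 0.0166), and r was −0.421 without DMSO replicate 4 and celastrol replicate 3. Hcrt and Pmch had r = −0.633 and −0.544 (rho −0.58 and −0.51; exact permutation p of r = 0.0567 and 0.0985; adjusted p = 0.342 and 0.345), and −0.502 and −0.347 without the same 2 arrays. Against the pituitary mean, Pmch had r = 0.714 (exact permutation p = 0.025, adjusted p = 0.262) and rho = 0.629 (exact permutation p = 0.0606), and r was 0.519 without celastrol replicates 2 and 3. Nts was at r = 0.08 against the thalamus mean (rho 0.07, exact permutation p = 0.86).

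Among all other named genes tested, Hcrt was most like Dtd1, Rpl36 and Wbp1 over the 12 group-centred arrays, with r of 0.933, 0.911 and 0.911. Pmch was most like Ghdc, Atmin and Tlnrd1, with r of 0.922, 0.891 and 0.867. These are the highest positive correlations among the genes compared, with predicted genes and small RNAs passed over, and are given as a description. Without the 2 arrays most extreme for Pmch, celastrol replicate 2 and withaferin A replicate 4, the r with Atmin was 0.646. The 3 genes most like Hcrt had r from −0.691 to −0.614 with the thalamus mean, beside the −0.633 of Hcrt. They were picked for their r with Hcrt on these same arrays, so a similar value follows largely from the choice. Ghdc, Atmin and Tlnrd1 had r of −0.408, −0.388 and −0.210 with the thalamus mean, beside the −0.544 of Pmch.

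Receptors and relatives of the peptides were followed as a list of 8 genes, of which 7 were tested. Galr2, a galanin receptor gene, was dim. In each of the 3 comparisons 0 rose and 0 fell. After celastrol the smallest p-values belonged to Spx, the gene of the peptide spexin, at 0.21 ± 0.09 (SE), and to Galr3, a galanin receptor gene, at −0.16 ± 0.09, with adjusted p of 0.457 and 0.568. The list median was 0.00094 after celastrol and 0.09 after withaferin A. After withaferin A, Galr1, the main galanin receptor gene of the hypothalamus, was at −0.22 ± 0.08, Spx at 0.24 ± 0.09 and Ntsr2, a neurotensin receptor gene expressed by astrocytes, at −0.11 ± 0.05, with adjusted p from 0.226 to 0.277. For withaferin A minus celastrol Galr3 was at 0.26 ± 0.09 and Galr1 at −0.22 ± 0.08, with adjusted p of 0.199 and 0.207.

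The list of other genes of lateral hypothalamic neurons had 12 members, all tested, of which 0 rose and 0 fell in each comparison. Trh, the precursor gene of thyrotropin-releasing hormone, was at 10.24, 10.13, 10.20 and 10.17 with withaferin A. It was at 10.19, 10.28, 10.06 and 10.30 with celastrol and at 10.45, 10.38, 10.39 and 10.50 with DMSO. Each treated array lay below each DMSO array. Of all genes tested, 4.5% lay wholly below DMSO after celastrol and 4.69% after withaferin A. The log2 difference of Trh was −0.22 ± 0.06 (SE) for celastrol minus DMSO and −0.25 ± 0.06 for withaferin A minus DMSO, with adjusted p of 0.128 and 0.155. Cartpt, a peptide gene that MCH neurons also express, was at −0.22 ± 0.09 in both comparisons, with adjusted p of 0.368 and 0.263. Rfx4, a transcription factor gene, was at −0.34 ± 0.10 after celastrol (adjusted p = 0.157). Nptx2, a secreted pentraxin gene expressed by orexin neurons, was at 0.23 ± 0.07 after withaferin A (adjusted p = 0.188) and at 0.21 ± 0.07 for withaferin A minus celastrol (adjusted p = 0.202). The list median was −0.03 after celastrol and −0.06 after withaferin A. Genes of this list need not be limited to these neurons, and bulk arrays cannot say in which cells a difference arose.

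Enzymes that cut, finish or break down neuropeptides formed a list of 9 genes, of which 8 were measured and tested, and 0 rose and 0 fell in each comparison. After celastrol Pcsk1, a prohormone convertase gene, was at −0.16 ± 0.08 (SE) and Qpct, whose enzyme forms the pyroglutamate end found on orexin-A and neurotensin, at −0.15 ± 0.09, with adjusted p of 0.514 and 0.60. Mme, the gene of the peptide-degrading enzyme neprilysin, was at −0.30 ± 0.09 for withaferin A minus DMSO and −0.37 ± 0.09 for withaferin A minus celastrol, with adjusted p of 0.189 and 0.127. The list median was −0.06 after celastrol and −0.07 after withaferin A.

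Signalling partners of these receptors, a list of 12 G protein, phospholipase, kinase and arrestin genes, had 0 that rose and 0 that fell in each comparison. Gnai2, which codes for an inhibitory G protein subunit, was at −0.16 ± 0.06 (SE) after celastrol and −0.15 ± 0.06 after withaferin A, and Arrb2, which codes for an arrestin that ends receptor signalling, at −0.11 ± 0.04 and −0.13 ± 0.04, with adjusted p from 0.215 to 0.336. Plcb1, a phospholipase gene, was at −0.19 ± 0.06 for withaferin A minus celastrol (adjusted p = 0.199). Genes of the neuronal primary cilium, where Mchr1 protein is found, were a list of 8 with 7 measured, of which again 0 rose and 0 fell. Bbs4, which codes for a subunit of the complex that carries receptors into the cilium, had the smallest p after withaferin A, at −0.21 ± 0.08 (adjusted p = 0.249), and Adcy3, the ciliary adenylyl cyclase gene, after celastrol, at −0.09 ± 0.07 (adjusted p = 0.698). The medians of both lists lay between −0.04 and −0.01 in all 3 comparisons.

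**Figure D4:**
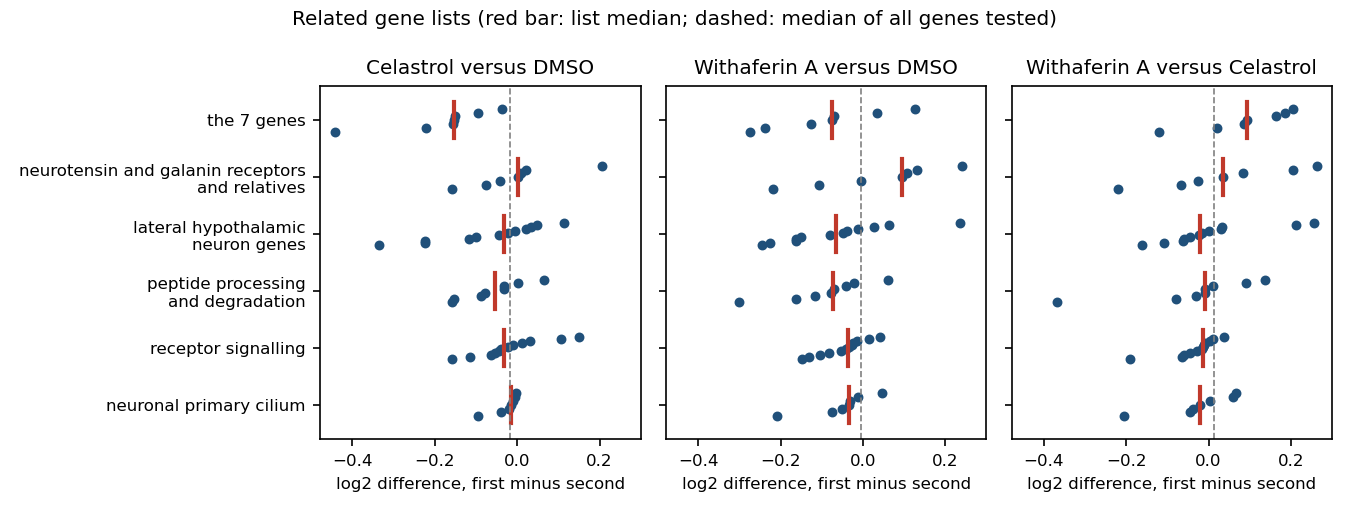
Log2 difference (horizontal axes, first group minus second) of each tested gene, by list, in the 3 comparisons, with red bars for list medians and a dashed line for the median of all genes tested. The median of the 7 genes lies at −0.15 for celastrol versus DMSO, and none of the points passed after adjustment.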

How the data were processed

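Total RNA of 12 hypothalamus samples was biotin-labelled and hybridised to 12 arrays, per the labels' protocols. The deposited log2 values were made with RMA, per the submitters' processing notes, with no version given. RMA corrects background and equalises distributions across arrays, which removes differences in total signal. Probe sets were named through the platform's probe table, and 0 of the 7 symbols needed updating against RefSeq. Of 35556 probe sets, 21789 had 1 symbol; a gene's probe set of highest mean was used. The filter removed genes whose mean fell under 5.81, the 25th percentile.

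A model with a mean per group, over the 12 arrays, was fitted in limma 3.58.1 in R 4.3.3 (lmFit, eBayes; two-sided; 9 residual and 4.44 prior degrees of freedom), and p-values were adjusted by Benjamini-Hochberg over 14953 genes. Correlations used exact permutation within groups, except those without centring, which used 100000 random shuffles over all 12 arrays. The limma fit, for celastrol versus DMSO, was tested on simulated data in which genes varied independently. The correlations were not tested in this way. Alternatives changed the filter, normalization, prior, weights, arrays used, replicate block and single arrays. The genes named are the 7, those of smallest p in each list, and the 3 most like Hcrt or Pmch, passing over predicted genes and small RNAs. The genes, lists and tests were chosen with earlier results of these data known.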

Additional observations from a re-analysis of the deposited data

Results flagged for a closer look

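Pmch on withaferin A replicate 4 had a log2 signal of 11.65, apart from the other withaferin A arrays at 11.97 to 12.004, a gap that covered 0.91 of the group's range. Among the 21 groups of 4 arrays checked this was the only such array, and chance gives about 1 in 20.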

How the results depend on the processing

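None of the 21 member differences passed under any of the 21 or 22 alternatives tried for each (lowest adjusted p 0.143, for Nts after celastrol without DMSO replicate 3), so the number of the 7 genes past the threshold stayed at 0. In 17 of the 21 the sign stayed the same; the others lay near 0, and the cause of each turn was not tested. Hcrt for withaferin A versus DMSO was 0.0038 after renewed quantile normalization and ran from −0.15 to 0.019 with single arrays left out. Hcrt for withaferin A versus celastrol was −0.014 with arrays centred on their medians and ran from −0.053 to 0.083 with single arrays left out. Hcrtr1 for withaferin A versus DMSO was −0.011 with centring on medians, and Mchr1 for celastrol versus DMSO ran from −0.080 to 0.0086 with single arrays left out. The 50th percentile filter left out Nts and Hcrtr2.

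The count over all genes moved more. For celastrol versus DMSO, 115 genes passed, and 182 with 8 arrays, 219 with array weights, 195 with an intensity trend and robust prior, 62 with every probe set and 60 with no filter. With single arrays left out it ran from 6 to 207: 20, 6, 62 and 32 without DMSO replicates 1 to 4, 67, 17 and 12 without celastrol replicates 1 to 3, and 207 without withaferin A replicate 1. For withaferin A versus DMSO, 0 genes passed (2352 at an unadjusted p under 0.05), 21 with array weights, 8 with the trend, 4 with the thalamus covariate, 172 without DMSO replicate 3 and 1 without withaferin A replicate 3 (range 0 to 172). For withaferin A versus celastrol, 7 passed, and 0 with 8 arrays, 19 with array weights, 12 with centring on medians, 29 with the trend, 13 with the 50th percentile filter and 11 with no filter or with every probe set. It ran from 0 to 56 with single arrays left out: 1, 0 and 15 without celastrol replicates 2 to 4, and 56, 1 and 0 without withaferin A replicates 1, 2 and 4. The causes were not tested. With the replicate number as a block the celastrol count was 54. Same-numbered arrays showed little shared deviation (r over 0.1 in 2 of 12 pairs). The labels state no pairing, and this check cannot exclude one. Of the gene pairs 0 passed, and 1 (Nts with Gal) without centring on group means, where differences between groups enter r.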
